A study of Glycine max with 12 samples.

Results

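Seeds of transgenic event e15 were compared directly with seeds of transgenic event e19 in soybean, without the null seeds in the test. The comparison was chosen by the labels and holds 6 of the 12 libraries of the series, 3 for each event, and 30891 of the 52872 genes in the count table passed the filter on low counts. E15 and e19 are separate transformation events of one construct with the GmUBQ promoter, in genotype 93Y21, and all seeds were collected 35 days after flowering. The titles give e15 the line code 15A and e19 the line code 19A, and mark both as HOM. The 6 null libraries carry another code, 33A, and are set beside the events below as levels only. The study concerns a form of GmCGS2, a cystathionine gamma-synthase, that carries a deletion. Each event is 1 line, so a difference between them is a difference between these lines. The sources used here do not state the insertion sites, how many plants stand behind a library, or how the nulls relate to the events. Whether replicates are separate plants is not in the labels either, and the p-values thus reflect the spread of these samples alone, which may be technical.

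In plant transformation a construct inserts at places in the genome that differ from event to event, so lines of one construct share the transgene but not its surroundings. Cystathionine gamma-synthase joins a sulfur-carrying cysteine to a phosphorylated homoserine, the entry into plant methionine synthesis. In the filling soybean seed, a few storage protein genes provide a large part of the messenger RNA, and their proteins are poor in methionine and cysteine.

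The e15 libraries held 21988821 to 22849075 counts, and the e19 libraries 19207771 to 21900491. Every e15 library held more counts than every e19 library (exact two-sided permutation test, p = 0.1, the smallest that 3 against 3 libraries allow, adjusted p = 0.3 over 3 measures). The 20 genes with the most counts took 43.8% to 45.8% of the counts in e15 and 43.2% to 46.7% in e19 (exact permutation p = 0.7, adjusted p = 0.7). The first principal component held 28.8% of the variance and separated the events, with e15 between -26.1 and -18.6 and e19 between 19.2 and 26.9. Replicate 3 of e19 had the lowest total and lay with the other e19 libraries on this component, at 19.2. Across genes its log2 CPM correlated at 0.9823 and 0.9829 with e19 replicates 1 and 2. With e15 replicates 1, 2 and 3 it correlated at 0.9822, 0.9795 and 0.9807. By the squared difference of counts, every e15 library was nearer to it than either other e19 library. Its squared differences from e15 replicates 1, 2 and 3 were 8.68, 8.70 and 6.47 times that of counting. Those from e19 replicates 1 and 2 were 12.9 and 12.6 times. No pair of event libraries was alike within counting noise, with ratios of at least 5.25. The targeted gene and the tissue's marker genes could not be checked, because the files used here pair no identifier with a name.

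Genes differed between the events in a small fraction of the transcriptome, and more of them were lower than higher in e15. Of the genes tested, 145 were called different (0.469%) at an adjusted p under 0.05 in edgeR's quasi-likelihood test. On simulated counts with dispersions that varied from gene to gene, the share of false calls exceeded this threshold of 0.05. In e15, 47 genes were higher (0.152% of those tested) and 98 were lower (0.317%). The higher genes had a median log2 difference of 1.46 and the lower genes one of -0.56, against 0.002 over all genes tested. The libraries of the 2 events did not overlap for any of the 145 called genes, and 12.1% of all genes tested had no overlap. With 3 libraries against 3, random labels alone give no overlap with a probability of 0.1, so the 12.1% is little above that. The log2 differences are e15 over e19, so a positive value means higher in e15. Because the seeds were profiled in bulk, fewer cells of a type and less RNA per cell cannot be told apart.

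Large and small differences ran in different proportions. At least 2-fold differences were called for 52 genes (0.168% of those tested), 29 higher and 23 lower in e15, and at least 4-fold differences for 26 genes, 16 higher and 10 lower. The 93 called genes with a smaller difference comprised 18 higher and 75 lower genes. The balance of directions moved with 1 library of e19. Without e19 replicate 2, 90 genes were higher and 84 lower in e15, and the differences under 2-fold comprised 47 higher and 57 lower genes. Lower genes kept the larger share without e19 replicate 1 (51 higher and 141 lower) and without e19 replicate 3 (36 higher and 68 lower). Leaving out e15 replicate 3 gave 83 called genes, of which 31 were higher and 52 lower. Scaling by library totals without TMM factors gave 41 higher and 64 lower genes.

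The size of difference that was called depended on the level. Levels are given in CPM (counts scaled to the TMM-adjusted library total), which are not scaled to gene length, and genes were ordered by the mean of the event in which they were higher. Up to 3.35 CPM, 23 of 10297 genes were called (0.223%), with 12 higher and 11 lower in e15, and none had a log2 difference under 1.00. Between 3.35 and 11.2 CPM, 32 of 10297 were called (0.311%), with 14 higher and 18 lower and a smallest log2 difference of 0.54 in size. Above 11.2 CPM, 90 of 10297 were called (0.874%), with 21 higher and 69 lower and a smallest size of 0.35. Most of the lower genes thus lay among those with many counts, where smaller differences were called.

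**Figure D1:**
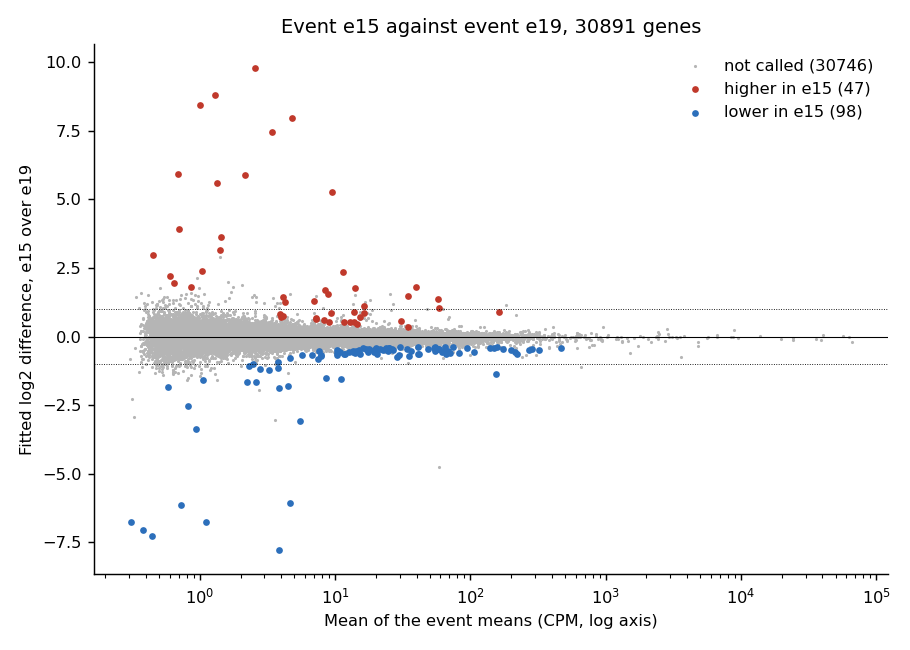
Fitted log2 difference of e15 over e19 against the mean level of the 2 events in CPM (log axis), with 1 point per gene tested, 47 genes higher in e15 in red, 98 lower in e15 in blue and the others in grey. Dotted lines mark 2-fold differences. The blue points crowd just below 0 at high levels, while the points farthest from 0 lie at low levels, where the prior count sets the fitted values of genes absent from an event.

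Glyma.05G236500 had the largest fitted difference among the genes higher in e15. It had 4.98, 5.38 and 4.99 CPM in e15 and no count in any e19 or null library. Against a floor of 3 counts per library, which is 0.147 CPM in e19, it was at least 34.8-fold higher in e15 (edgeR's quasi-likelihood test, adjusted p = 1.61e-10). Such floors, and the counting limits of ratios below, cover counting error only. Glyma.09G235400 had the highest level among the genes higher in e15. It had 212, 215 and 208 CPM in e15, against 93.4, 127 and 122 CPM in e19 and 40.3 to 44.9 CPM in the nulls. The events did not overlap, and both lay above every null library. Its log2 difference was 0.89 ± 0.10 (SE, edgeR's adjusted p = 2.23e-05). Among the genes at least 2-fold higher, Glyma.08G018100 had the highest level, with 80.1, 85.0 and 82.7 CPM in e15 and 35.5, 29.5 and 30.8 CPM in e19. Its e19 libraries lay in or across the range of the nulls, 28.7 to 34.2 CPM, and the log2 difference was 1.37 ± 0.09 (SE, edgeR's adjusted p = 9.60e-10).

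Glyma.06G273700 had the largest fitted difference among the genes lower in e15. It had 0, 2 and 0 counts in the e15 libraries, against 141, 174 and 155 counts in e19, which are 6.63, 8.84 and 7.63 CPM. The nulls had 6.48 to 8.28 CPM, so e15 alone lacked it. Its level was 262 times higher in e19, with 95% counting limits of 72.1 and 2170 (edgeR's adjusted p = 1.48e-11). Glyma.06G272500 had the highest level among the genes at least 2-fold lower in e15. It had 82.9, 93.4 and 85.2 CPM in e15, against 216, 239 and 212 CPM in e19 and 199 to 239 CPM in the nulls. The events were far apart, with a log2 difference of -1.35 ± 0.09 (SE, edgeR's adjusted p = 1.45e-09). Glyma.13G205600 had the highest level of all genes lower in e15, with 393, 395 and 404 CPM in e15 and 535, 565 and 488 CPM in e19. The events did not overlap, but the nulls spanned 404 to 567 CPM, with replicates 1 to 3 at 404 to 422 CPM and replicates 4 to 6 at 532 to 567 CPM. Its log2 difference of -0.41 ± 0.09 (SE, edgeR's adjusted p = 0.0434) was no longer called under 7 of the alternatives, among them leaving out any e15 replicate or replicate 1 or 2 of e19.

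**Figure D2:**
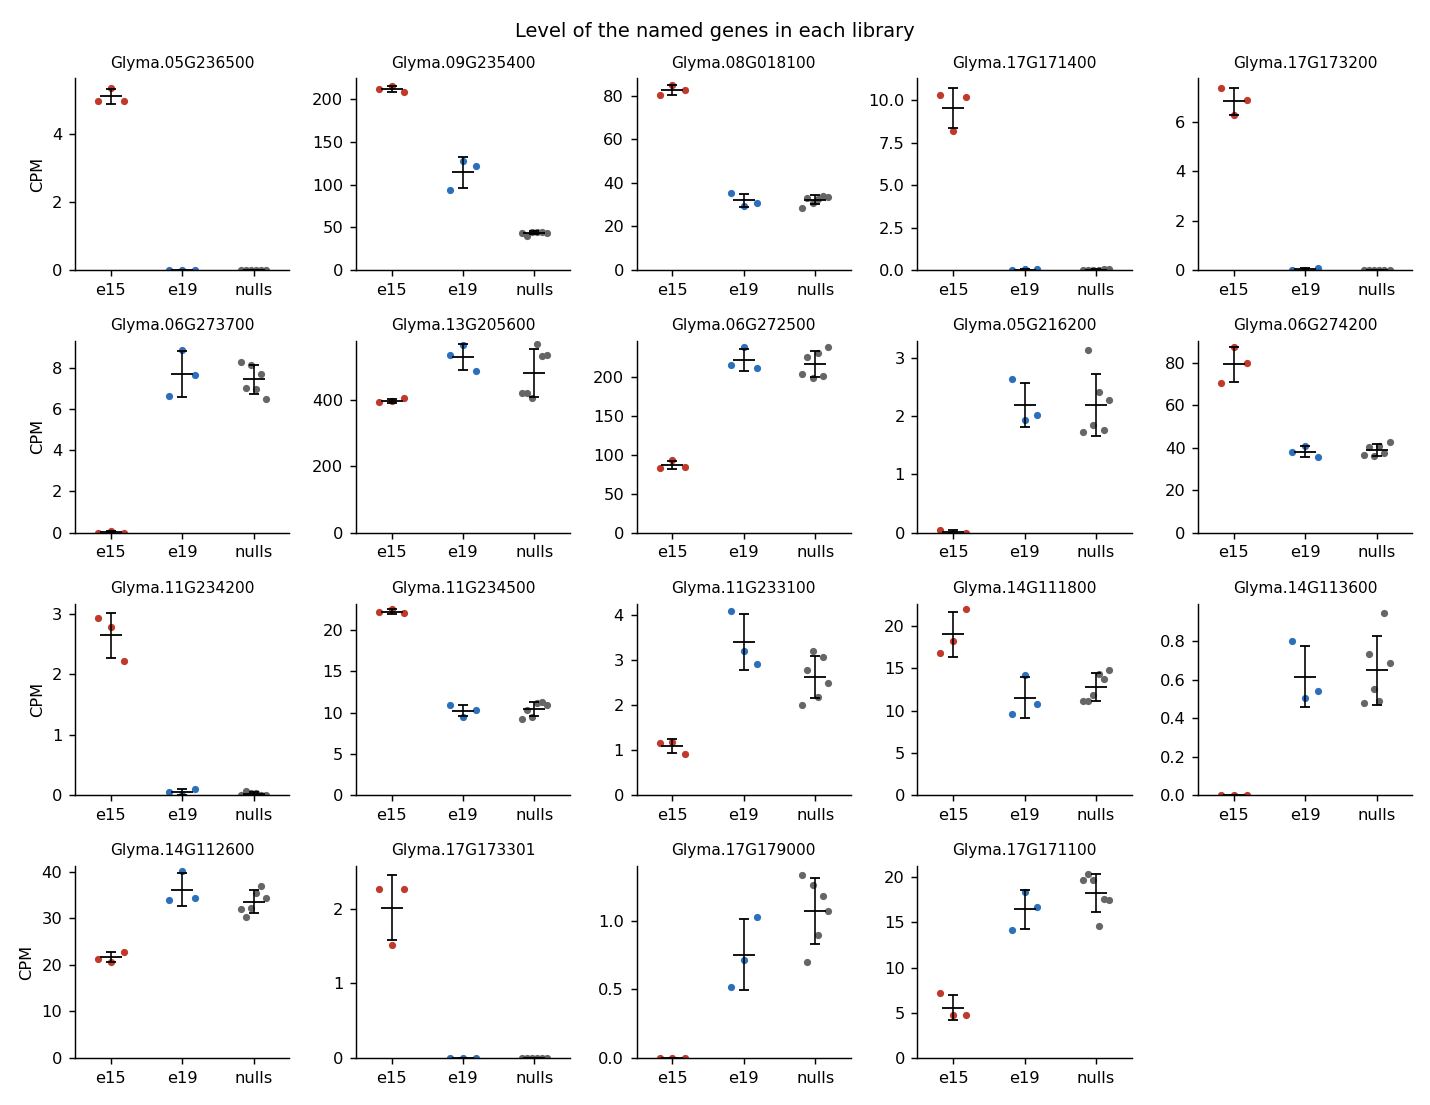
Level in CPM of 19 genes in each library, with points for libraries and bars for the mean ± SD of e15 (n = 3), e19 (n = 3) and the nulls (n = 6). In most panels the e19 libraries sit at the level of the nulls and the e15 libraries do not, as for Glyma.06G272500 at 87.2 ± 5.55 CPM in e15, 222 ± 14.7 CPM in e19 and 217 ± 17.2 CPM in the nulls. Genes given only because e19 alone lay outside the nulls, because the events lay on opposite sides of them, or as adjacent pairs are not shown. The panels are thus a selection of the 33 named genes, and this share of panels depends on it.

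Some genes gave reads in 1 event and almost none in the other. Every e15 library held at least 10 counts, and no e19 library more than 3, for 10 genes (0.0324% of those tested), on 6 chromosomes and with means of 0.805 to 9.56 CPM in e15. The opposite was found for 6 genes (0.0194%), on 4 chromosomes and with means of 0.617 to 7.70 CPM in e19. All 16 were among the 145 called genes, which edgeR's test chose with the same counts. With at least 20 counts in every library of 1 event and 0 in the other, 3 genes were left.

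The nulls differed between these sets. Of the 10 genes with counts in e15 alone, 7 had at most 3 counts in every null library, and none had 10 counts in every null. Of the 6 genes with counts in e19 alone, 5 had at least 10 counts in every null library. Glyma.17G171400 had 10.3, 8.21 and 10.2 CPM in e15 and 0, 1 and 1 counts in the e19 libraries, a ratio of 293 (counting limits 80.9 and 2430). The 6 nulls held 2 counts of it together. Glyma.17G173200 had 7.34, 6.25 and 6.88 CPM in e15, while the e19 libraries held 0, 0 and 2 counts and the nulls none, a ratio of 209 (limits 57.5 and 1730). Both genes were thus all but unread outside e15. Glyma.05G216200 showed the opposite, with 1, 0 and 0 counts in e15 and 2.63, 1.93 and 2.02 CPM in e19. Its ratio of e19 to e15 was 150 (limits 26.6 and 5990), and the nulls had 1.73 to 3.13 CPM. Of the 16 genes, 9 had whole counts in all 6 event libraries, while the others had estimated counts that may be shared with near-identical copies.

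Set beside the nulls, the called genes were mostly those in which e15 stood outside. The 3 libraries of e15, and not those of e19, lay wholly above or wholly below the range of the 6 nulls for 97 of the 145 called genes (66.9%), against 4.64% of all genes tested. The libraries of e19 alone lay outside for 11 called genes (7.59%), against 2.60% of all genes tested. Both events lay outside for 11 called genes, on opposite sides of the nulls for 9 of them, and neither lay outside for 26. Over all 30891 genes tested, both lay outside for 168, on opposite sides for 16 of them, and neither for 28485. The counts of called genes describe genes already chosen for a difference between the events, which itself favours genes with the events on opposite sides. The range of 6 nulls is wide where nulls 1 to 3 and nulls 4 to 6 differ, as in Glyma.13G205600, so fewer such genes can lie outside it. These nulls also differed as whole libraries. In nulls 1 to 3 the 20 genes with the most counts took 38.55% to 39.73% of the counts. Nulls 4 to 6 had 43.99% to 44.81%, and the event libraries 43.2% to 46.7%. The squared differences between replicates were 7.38 to 12.9 times that of counting in e19 and 5.25 to 7.065 times in e15. All 3 libraries of an event had to lie outside, so the counts for the 2 events are not like for like.

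The genes in which e19 stood outside the nulls, of which 4 are given here after their values were seen, included large differences. Glyma.04G194900 had 61.0, 61.7 and 63.7 CPM in e15, 17.8, 17.7 and 17 CPM in e19 and 57.0 to 63.7 CPM in the nulls, and its log2 difference was 1.82 ± 0.08 (SE, edgeR's adjusted p = 2.78e-12). Glyma.05G079651 had 2.62, 2.92 and 2.47 CPM in e15, 0.141, 0 and 0.493 CPM in e19 and 1.97 to 3.25 CPM in the nulls (edgeR's adjusted p = 0.000556). In both, e15 was at the level of the nulls and e19 was below it. Glyma.04G201600 had 1.33, 0.821 and 1.3 CPM in e15, 8.14, 9.25 and 12.2 CPM in e19 and 0.894 to 1.81 CPM in the nulls, and its log2 difference was -3.09 ± 0.20 (SE, edgeR's adjusted p = 4.36e-09). Here e19 lay far above both other groups. Glyma.08G051400 had 21, 21.4 and 22 CPM in e15, 32.9, 26.6 and 27.4 CPM in e19 and 21.2 to 25.8 CPM in the nulls. Its call (edgeR's adjusted p = 0.0297) was lost under 8 of the alternatives, among them leaving out any e15 replicate or replicate 1 or 3 of e19.

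Called genes were unevenly spread over the chromosomes, which were read from the gene identifiers, as was the order of genes along them. No coordinates were used. Chromosome 11 held 17 called genes of 1594 tested (1.07%), chromosome 17 held 15 of 1545 (0.971%) and chromosome 14 held 14 of 1199 (1.17%). Chromosome 18 held 2 of 1504, and chromosome 20 held 0 of 1348. Chromosomes 5, 6, 11, 14 and 17 were chosen because each held at least 6 called genes with at least 2-fold differences. They had 38 of the 52 such genes (73.1%) and 24.6% of the genes tested. The same chromosomes held 27 of the 93 called genes with smaller differences (29.0%), which lay on 19 chromosomes in all. The choice of these chromosomes itself raises the share of genes with at least 2-fold differences on them, so the shares are a description only. The count on chromosome 11 ranged from 9 to 16 over the fits that left out 1 library, and the lowest came without e15 replicate 3; it was 11 without e15 replicate 1 and 10 without e19 replicate 3.

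**Figure D3:**
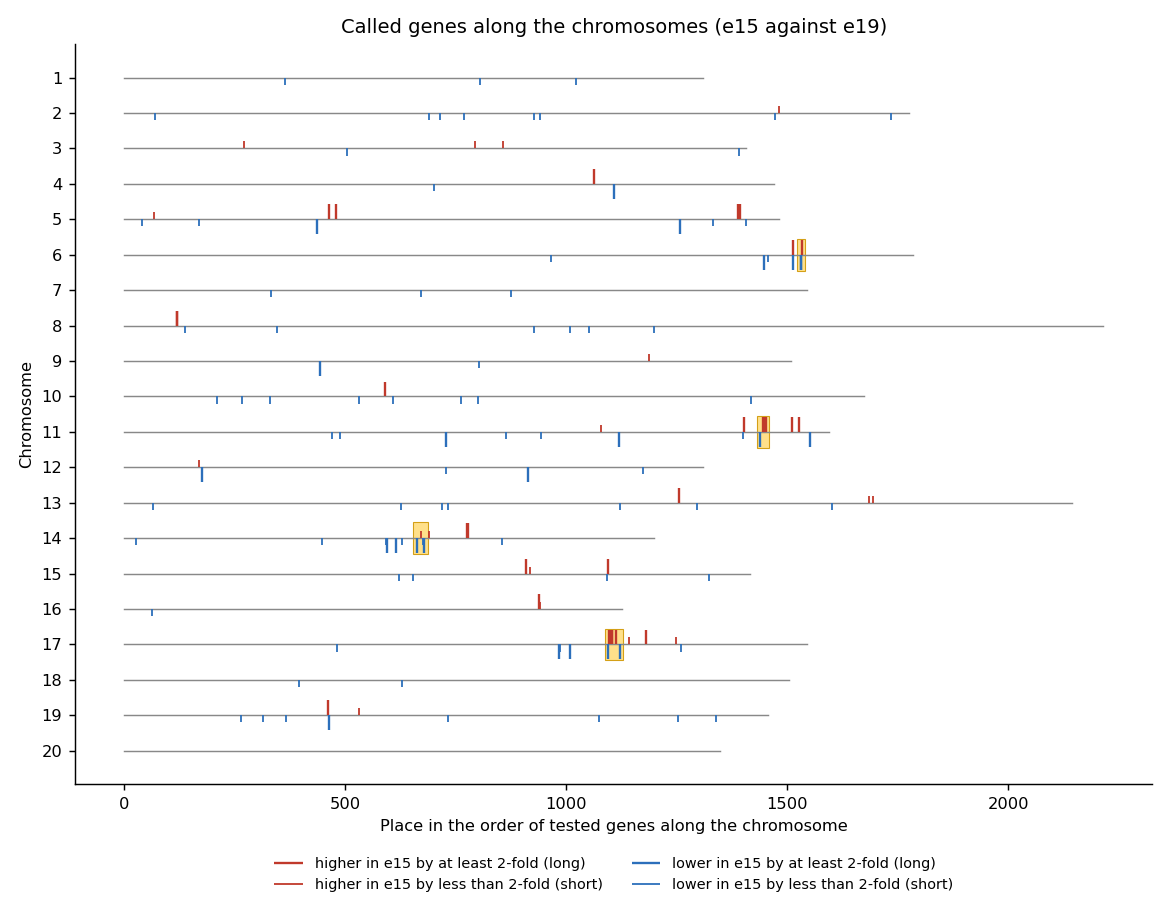
Place of the 145 called genes in the order of tested genes along each chromosome, with ticks up for genes higher in e15 and ticks down for genes lower in e15. Long ticks are differences of at least 2-fold and short ticks smaller ones, and shaded boxes mark the 4 runs of neighbouring called genes. The long ticks gather on chromosomes 5, 6, 11, 14 and 17, and chromosome 20 has no tick.

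Some neighbouring genes were called together, although 126 of the 145 called genes lay in no run. A run was counted where at least 3 called genes lay on 1 chromosome with each within 10 tested genes of the next. There were 4 runs, on chromosomes 6, 11, 14 and 17, which held 19 called genes (13.1% of the 145) within spans of 60 tested genes (0.195% of those placed on a chromosome). Each span was cut at its first and last called gene, so the definition itself raises the share called in spans, here and below. These shares are a description only. The runs held 16 of the 52 genes with at least 2-fold differences (30.8%), 10 of the 26 with at least 4-fold differences (38.5%) and 3 of the 93 with smaller ones (3.23%). The median size of the log2 difference was 2.21 in the runs and 0.63 outside them. Each run mixed directions, with 11 genes higher and 8 lower in e15 in all. In 17 of the 19 genes e15 alone lay outside the range of the nulls, and in none did e19 alone. The number of runs was 7 without e15 replicate 1 and 7 without e19 replicate 1, with 27 and 26 genes. Without e15 replicate 3, 11 genes lay in runs, and with neighbours counted within 20 tested genes, 32 genes did, in 7 runs.

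On chromosome 6 the run was made of 3 consecutive tested genes, at places 1531 to 1533 of 1784, all at least 2-fold apart. Glyma.06G272500 and Glyma.06G273700, given above, were lower in e15, and Glyma.06G274200 was higher. The last had 70.7, 87.3 and 80.1 CPM in e15, 37.8, 40.9 and 35.8 CPM in e19 and 36.2 to 42.9 CPM in the nulls, with a log2 difference of 1.06 ± 0.09 (SE, edgeR's adjusted p = 1.64e-07). Of the adjacent genes, Glyma.06G272500 and Glyma.06G273700 differed in the same direction, and Glyma.06G273700 and Glyma.06G274200 in opposite directions. In each of them e19 lay in or across the range of the nulls. None of the 3 had whole counts throughout the event libraries, so their levels may be shared with near-identical copies.

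On chromosome 11 the run spanned places 1439 to 1452, where 5 of 14 genes were called (35.7%), 4 of them higher in e15. The called genes at places 1451 and 1452, both higher, had log2 differences of 0.46 and 2.21 (edgeR's adjusted p = 0.0459 and 0.0408). The end of the span thus rests on calls near the threshold. Glyma.11G234200 had 2.93, 2.78 and 2.22 CPM in e15 and 1, 0 and 2 counts in e19, a ratio of 53.8 (counting limits 18.1 and 263), and the nulls held 4 counts together. Glyma.11G234500 had 22.1, 22.5 and 22 CPM in e15, against 10.9, 9.50 and 10.3 CPM in e19 and 9.25 to 11.3 CPM in the nulls. Its log2 difference was 1.11 ± 0.09 (SE, edgeR's adjusted p = 1.18e-07), and the libraries within each event lay close together. Glyma.11G233100, the first gene of the run and the 1 lower in e15, had 1.16, 1.19 and 0.923 CPM in e15, against 4.09, 3.20 and 2.91 CPM in e19 and 2.01 to 3.19 CPM in the nulls. Its log2 difference was -1.64 ± 0.22 (SE, edgeR's adjusted p = 0.000187). The 9 genes of the span that were not called had a median log2 difference of 0.28, and 1 of them was at least 2-fold apart.

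On chromosome 14 the run spanned places 663 to 679, where 4 of 17 genes were called (23.5%), 1 higher and 3 lower in e15. Glyma.14G113600 had no count in e15, 0.800, 0.508 and 0.542 CPM in e19 and 0.482 to 0.949 CPM in the nulls, and was at least 4.67-fold lower in e15 (edgeR's adjusted p = 0.00112). Glyma.14G112600 had 21.3, 20.7 and 22.8 CPM in e15, against 34, 40.2 and 34.3 CPM in e19 and 30.2 to 37.0 CPM in the nulls. Its log2 difference was -0.74 ± 0.09 (SE, edgeR's adjusted p = 3.41e-05). Both lacked overlap between e15 and either other group. Glyma.14G111800, the 1 higher gene, had 16.8, 18.2 and 22 CPM in e15, against 9.65, 14.2 and 10.8 CPM in e19 and 11.1 to 14.8 CPM in the nulls. Its call (log2 difference 0.72 ± 0.14 SE, edgeR's adjusted p = 0.0362) was lost under 5 alternatives, among them leaving out e15 replicate 2 or 3 or e19 replicate 3. The 13 genes of the span that were not called had a median log2 difference of 0.03.

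On chromosome 17 the run spanned places 1096 to 1121, where 7 of 26 genes were called (26.9%), 5 higher and 2 lower in e15 and each at least 2-fold apart. Glyma.17G171400 and Glyma.17G173200, given above, lay here, with 2 further genes with counts in e15 alone. One of these was Glyma.17G173301, next to Glyma.17G173200, with 2.27, 1.51 and 2.26 CPM in e15 and no count in any e19 or null library, at least 13.7-fold higher in e15 (edgeR's adjusted p = 6.39e-07). Glyma.17G171100, the first gene of the run, had 7.20, 4.79 and 4.74 CPM in e15, against 14.2, 18.4 and 16.7 CPM in e19 and 14.6 to 20.4 CPM in the nulls. Its log2 difference was -1.56 ± 0.15 (SE, edgeR's adjusted p = 2.77e-05). Glyma.17G179000, the last, had no count in e15, 0.518, 0.712 and 1.03 CPM in e19 and 0.696 to 1.33 CPM in the nulls, at least 5.71-fold lower in e15 (edgeR's adjusted p = 0.000499). In all 7 called genes e15 alone lay outside the nulls. The 19 genes between them that were not called had a median log2 difference of -0.02, and 1 of them was at least 2-fold apart.

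**Figure D4:**
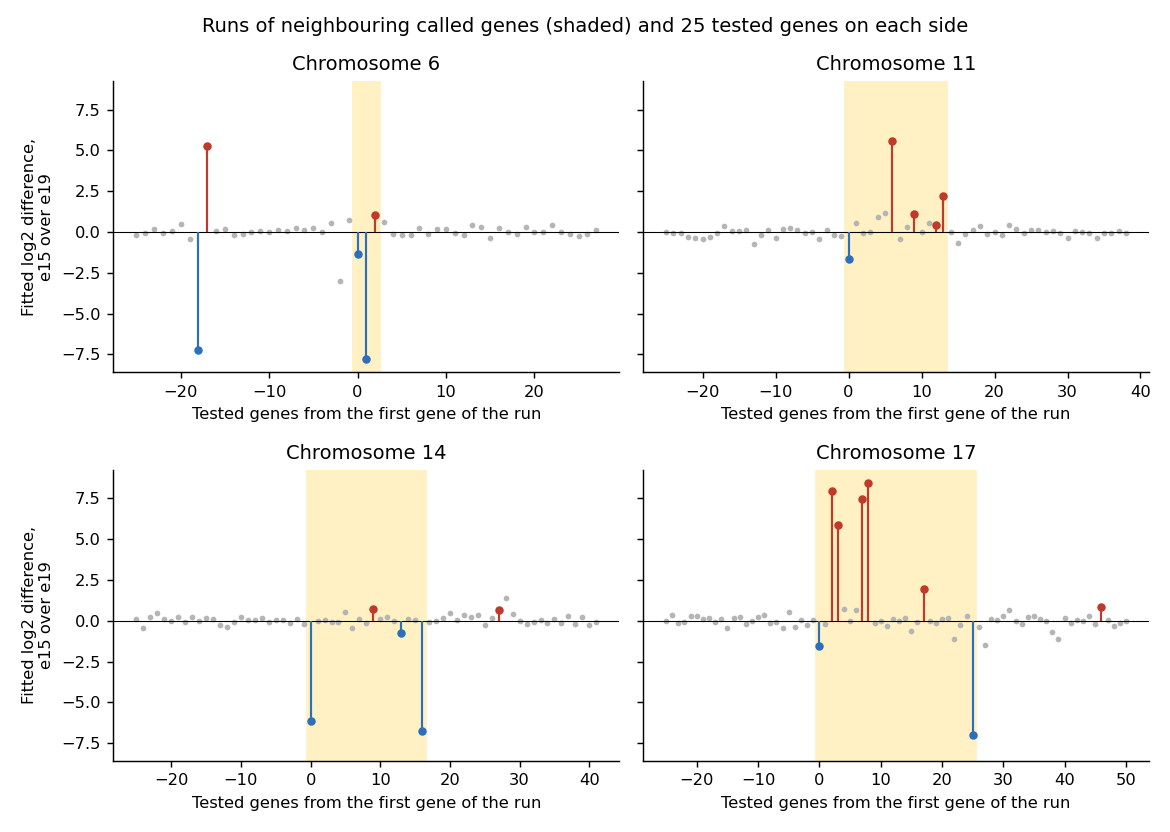
Fitted log2 difference of e15 over e19 for the tested genes of each of the 4 runs (shaded) and around it, by place counted from the first gene of the run, with called genes as red (higher in e15) or blue (lower in e15) points on stems and the others in grey. The genes between the called ones have median log2 differences of 0.28 in the run on chromosome 11, 0.03 on chromosome 14 and -0.02 on chromosome 17. The prior count enters the fitted values of genes nearly absent from 1 event.

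Called genes also stood directly next to each other, in 9 pairs of adjacent tested genes, 5 of them within the runs. Of the 9 pairs, 6 differed in the same direction and 3 in opposite directions, and in 7 both genes had a fractional count in some event library. The 4 pairs outside the runs are given here after their values were seen. On chromosome 6, Glyma.06G268700 had 19.1, 17.1 and 19.4 CPM in e15, 0.659, 0.356 and 0.394 CPM in e19 and 0.491 to 1.14 CPM in the nulls, with a log2 difference of 5.28 ± 0.18 (SE, edgeR's adjusted p = 1.48e-14). Its neighbour Glyma.06G268467 had no count in e15, 0.847, 1.02 and 0.788 CPM in e19 and 0.393 to 0.849 CPM in the nulls, at least 6.69-fold lower in e15 (edgeR's adjusted p = 9.15e-05). The pair differed in opposite directions.

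On chromosome 8, Glyma.08G018000, next to Glyma.08G018100 and like it higher in e15, had 3.33, 2.28 and 1.93 CPM in e15, 0.235, 0.356 and 0.246 CPM in e19 and 0.193 to 0.708 CPM in the nulls (log2 difference 3.15 ± 0.34 SE, edgeR's adjusted p = 6.47e-06). On chromosome 11, Glyma.11G227600 had 45.7, 55.5 and 51.7 CPM in e15, against 16.7, 18.4 and 19.2 CPM in e19 and 17 to 21.8 CPM in the nulls (log2 difference 1.49 ± 0.09 SE, edgeR's adjusted p = 5.98e-10). Its neighbour Glyma.11G227500 had 10.8, 12.6 and 10.4 CPM in e15, against 16.9, 19.9 and 14 CPM in e19 and 13.5 to 18.5 CPM in the nulls. That gene was lower in e15 (log2 difference -0.59 ± 0.12 SE, edgeR's adjusted p = 0.0270), a call lost under 6 alternatives, among them leaving out replicate 1 or 3 of e15 or replicate 1 or 2 of e19. On chromosome 14, Glyma.14G136300 had 29, 37 and 23 counts in e15 and 3, 1 and 1 in e19, and Glyma.14G136351 had 31, 37 and 24 counts in e15 and 1, 0 and 0 in e19. Glyma.14G136300 was 16 times higher in e15 by the ratio of its counts (counting limits 6.59 and 50.4, edgeR's adjusted p = 9.93e-05), and the 6 nulls held 7 counts of it. For Glyma.14G136351 the ratio was 82.5 (limits 14.4 and 3290, edgeR's adjusted p = 1.25e-05), and the nulls held 14 counts.

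**Figure D5:**
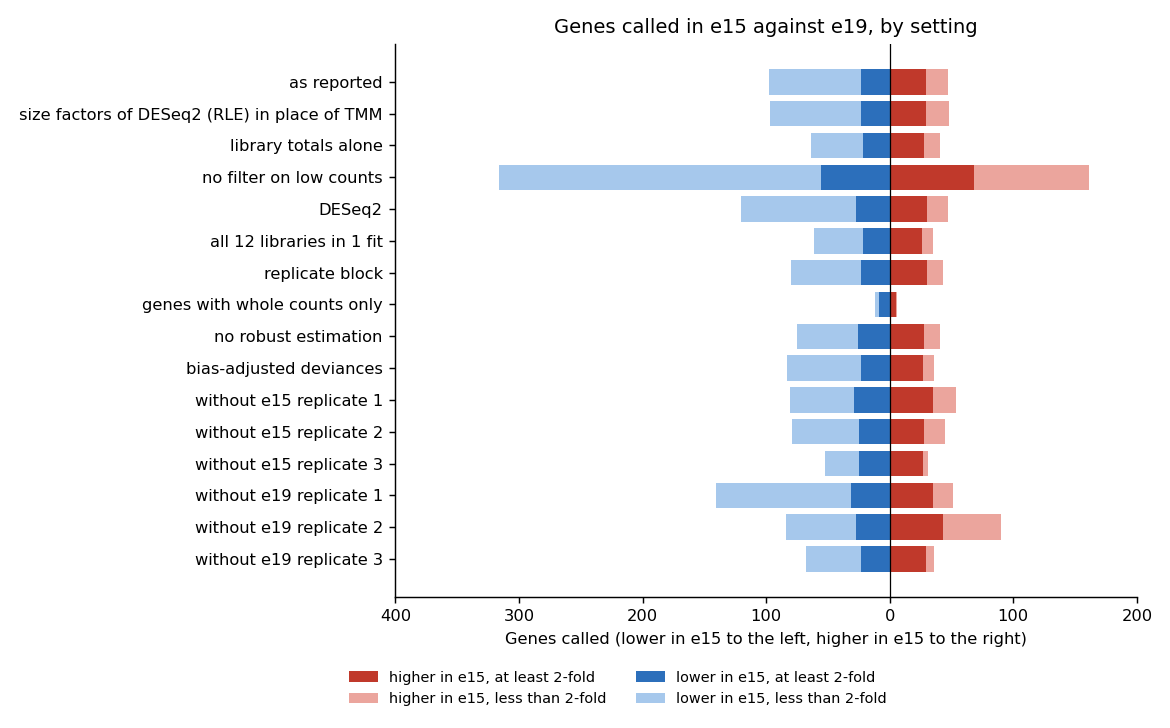
Genes called in e15 against e19 under each setting, with genes higher in e15 to the right of 0 and genes lower in e15 to the left, and darker parts for differences of at least 2-fold. As reported, 47 genes were higher and 98 lower, and without e19 replicate 2 there were 90 higher and 84 lower. Without the filter on low counts there were 161 higher and 316 lower genes.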

How the data were processed

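The deposited table holds estimated counts of reads per gene, 1 column per library, which the authors made from single reads of 100 bp of polyadenylated RNA, per the labels' protocols. The aligner, the counting program and whether strand was used are not stated in the sources used here. Among the genes tested, 77.3% showed a fractional value in an event library (tolerance 0.0005). The counts are therefore estimates, and genes with near-identical copies, overlapping genes and antisense genes are uncertain. All columns matched a sample (0 did not).

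Counts were rounded, filtered with filterByExpr, scaled with TMM factors and compared over the 6 event libraries by the quasi-likelihood test of edgeR (version 4.0.16 under R 4.3.3, robust estimation), with a mean per event, no covariate, Benjamini-Hochberg adjustment over 30891 genes and a threshold of 0.05. Standard errors were derived from the log2 difference and the F statistic, and are left out where an event held few counts. CPM use TMM-scaled totals. On simulated counts the test gave the right sign to nearly all changed genes, and the share of false calls exceeded the threshold when dispersions varied from gene to gene. Of the genes in the table, 43195 had a count in an event library, and 3 counts per library were 0.132 CPM in e15, 0.147 CPM in e19 and 0.125 CPM in the nulls. Library measures were compared by exact permutation tests.

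Called genes that reached 5 CPM on average in an event and did not overlap between events were eligible for naming, and 32 higher and 82 lower genes met this. With no descriptions, at most 2 higher and 2 lower identifiers are given per result, the largest and the most abundant. In runs and for genes with counts in 1 event alone the minimum level was not applied. Outside this rule, with no minimum level, are the adjacent pairs, the genes in which e19 alone or both events lay outside the nulls, and the 2 large differences not called, all chosen after their values were seen. None of the identifiers (0) matched the RefSeq gene table of Glycine_max_v4.0, so functional lists, marker lists and the targeted gene were not analysed. The comparison, the members and the lists were chosen with earlier results of these data known. The alternatives were DESeq2 (version 1.42.0) and its size factors, library totals, no filter, all 12 libraries in 1 fit, the replicate number as a block, whole counts only, other windows and count limits, and leaving out each library.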

Additional observations from a re-analysis of the deposited data

Results flagged for a closer look

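For 3 of the genes named here the events lay on opposite sides of the 6 nulls, and the difference between the events is the tested one. Glyma.19G104100 had 0.667, 0.867 and 0.881 CPM in e15, 0.141, 0.102 and 0.0493 CPM in e19 and 0.223 to 0.542 CPM in the nulls. Its fitted log2 difference was 2.97 (edgeR's adjusted p = 0.00465), and the ratio of summed counts, 55 in e15 to 6 in e19, was 8.22 (counting limits 3.55 and 23.4). Glyma.14G107350, the first gene of the run on chromosome 14, had 0, 0 and 0.0419 CPM in e15, 1.69, 1.32 and 1.28 CPM in e19 and 0.271 to 0.581 CPM in the nulls. Its fitted log2 difference was -6.14 (edgeR's adjusted p = 3.32e-06), a value that depends on the prior count, and the ratio of e19 to e15 was 98.1 (limits 17.2 and 3920). Glyma.19G052200 had 30.2, 33.7 and 32.5 CPM in e15, 51.4, 51.3 and 48.0 CPM in e19 and 37.4 to 45.8 CPM in the nulls, with a log2 difference of -0.64 ± 0.08 (SE, edgeR's adjusted p = 8.41e-05). These genes were chosen after their values were seen.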

How the results depend on the processing

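Of the 145 called genes, 73 were called with the same sign without e15 replicate 3, 85 without e19 replicate 3 and 90 with all 12 libraries in 1 fit. Under no filter on low counts 477 genes of 43189 tested were called, 124 of them at least 2-fold apart and 49 in 13 runs, with 35 on chromosome 11, 36 on chromosome 17 and 30 on chromosome 14. Glyma.09G235400, at a log2 difference of 0.89 in both fits, had edgeR's adjusted p = 2.23e-05 with the filter and 1.21e-18 without it. The fits thus differ in more than the genes tested, and their counts are not like for like. Fitting all 12 libraries gave 96 calls and 11 on chromosome 11. Among genes with whole counts alone, where 7000 were tested, 18 were called, 14 of them at least 2-fold apart and 4 in 1 run, with 2, 6 and 3 on chromosomes 11, 17 and 14. Only 29 of the 145 called genes were among these 7000, and 18 of the 29 were called with the same sign. With fewer genes tested, the runs are not like for like either. Neighbours within 20 tested genes put 32 genes in runs, and the limits of 20 and 0 counts left 3 genes in 1 event alone. DESeq2 called 167 genes. Leaving out 1 library gave 83 to 192 calls, 52 to 70 of them at least 2-fold apart, 11 to 27 genes in runs, 9 to 16 on chromosome 11, and 10 to 16 on chromosomes 17 and 14. The replicate block gave 123 calls, 43 higher and 80 lower, and ended the calls of Glyma.05G079651 and Glyma.08G051400. The numbers did not pair the libraries, as same-numbered deviations correlated at -0.0406, 0.0134 and -0.0251. Calls without robust estimation (116) and with bias-adjusted deviances (119) were alternatives added after the data were seen. The cause of these differences was not tested. At low levels the smallest differences called were larger than at high levels.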

Other observations

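The 2 genes that were not called despite a fitted difference of at least 4-fold and a mean of 5 CPM or more in an event are given here after their values were seen. Glyma.06G272100, at place 1529 on chromosome 6 and just before the run there, had 1.16, 0.730 and 0.461 CPM in e15 and 5.18, 4.37 and 9.56 CPM in e19. Its log2 difference was -3.02 (edgeR's adjusted p = 0.0501). The nulls had 14.7, 12.3 and 12.5 CPM in replicates 1 to 3 and 4.07, 5.74 and 4.20 CPM in replicates 4 to 6, so e15 lay below every null. Glyma.09G158500 had 9.60, 0 and 3.10 CPM in e15, 190, 125 and 25.1 CPM in e19 and 0.603 to 80.6 CPM in the nulls, with a log2 difference of -4.74 (edgeR's adjusted p = 0.569). Its libraries differed widely within every group.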
